A study of Mus musculus with 3 samples.

Results

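The angiopoietin and Tie system was examined in mouse heart tubes at embryonic day 9.5, as 5 genes chosen by symbol: the ligand genes Angpt1 and Angpt2, the receptor genes Tek (Tie2) and Tie1, and Ptprb, which encodes the phosphatase VE-PTP. All 5 were found among the 23337 genes of the count files, and all 5 passed the filter on low counts that left 13334 genes to test. Bulk RNA-seq gave 2 libraries of genotype Sox7-null (Sox7 -/-) and 1 library labelled wild type, all of heart tube tissue, and the Sox7-null libraries are named null 1 and null 2 below. The labels give neither the strain, the design of the null allele nor whether a tube came from one embryo or from a pool. The p-values rest on the spread between the 2 Sox7-null libraries, which may be technical, and on variability pooled over genes. The 1 wild-type library gives no spread of its own. The series asks which transcripts of the developing heart depend on Sox7, a SoxF transcription factor of endothelium and endocardium.

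Angiopoietins are secreted ligands of the endothelial receptor tyrosine kinase Tek. Angpt1 comes from cells around the endothelium, in the early heart mainly from the myocardium, and activates Tek in endocardium and vessels. Angpt2 comes from endothelium itself and can weaken or replace the action of Angpt1, depending on context. Tie1 is a related receptor that binds no angiopoietin with high affinity and modifies signalling by Tek, and Ptprb removes phosphate from Tek and from junction proteins. Mice without Angpt1 or Tek die in mid-gestation with poorly developed endocardium and trabeculae.

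The receptor genes moved in opposite directions. Tek fell to 43.7% and 62.7% of the wild-type level in the 2 Sox7-null libraries, while Tie1 rose to 196% and 158% of it. Ptprb, Angpt2 and Angpt1 did not pass the test, the first pair with higher values in both Sox7-null libraries and Angpt1 with lower values in both. Thus 1 of the 5 genes was called higher and 1 lower at an edgeR adjusted p under 0.05. Over all genes tested, 11.3% were called higher and 10.2% lower (21.6% in either direction), so calls were common in this comparison as a whole. At an unadjusted p under 0.05 in edgeR, 2440 of the 13334 genes tested were higher and 2272 lower. DESeq2 called 15.0% of the genes it tested, 8.80% higher and 6.24% lower, and of the 5 genes it called Tek alone.

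Reads assigned to genes numbered 13139823 in null 1, 13618338 in null 2 and 13789388 in the wild type. The wild-type library had more reads aligned at several places (22.3% of the file, against 10.4% in null 1 and 11.6% in null 2) and more outside genes (11.7% against 8.10% and 8.52%). With 1 wild-type library, these differences and that of genotype cannot be told apart. Sox7 itself had 2 and 7 reads in the Sox7-null libraries and 222 in the wild type, in keeping with the labels. The heart muscle gene Actc1 stood at 9936 to 13734 CPM (counts per 1000000 reads, on library sizes scaled by TMM), although the extraction protocol in the labels speaks of retinal organoids. Every pan-endothelial, myocardial, mural, haematopoietic and epicardial marker examined had at least 1 read in some library.

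The promoter of Tek is shown because Tek is the gene of the family that fell and because SOX proteins are known to bind the letters ACAAT. The window holds the 250 bases before the RefSeq start of Tek on the plus strand of chr4:94739039-94739288 (GRCm38.p6), written 5′ to 3′, with matches to ACAAT or its reverse ATTGT in capitals.
Tek promoter: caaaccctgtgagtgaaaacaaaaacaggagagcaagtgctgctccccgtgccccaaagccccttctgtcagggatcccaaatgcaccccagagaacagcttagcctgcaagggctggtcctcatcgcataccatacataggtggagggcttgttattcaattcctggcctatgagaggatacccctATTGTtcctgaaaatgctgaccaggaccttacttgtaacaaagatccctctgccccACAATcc
The matches lie 63 bases (ATTGT) and 7 bases (ACAAT) before the start. Of 32851 RefSeq windows of the same length, 27.7% hold at least 1 such match and 6.59% hold 2 or more, as the window of Tek does. The longer form AACAAT matched once, on the reverse strand at the match 63 bases before the start, and is found in 9.42% of windows. Other letters that SOX proteins may bind were not searched. The ETS core GGAA or its reverse TTCC matched 2 times, once overlapping the first ACAAT match by its end, and 93.5% of windows hold it. The matching window for Tie1 held 0 ACAAT and 7 GGAA matches. That window is not printed, since 212 of its 250 bases lie inside an exon of Tie1 in GENCODE M21. Matches of this kind describe letters only, and no binding was measured in this series. RefSeq promoter windows were matched for 2 of the 5 genes.

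Levels can be compared between genes only per length, and Angpt1 and Tek led the family on that scale. In the wild type, reads per kilobase of merged exon and per 1000000 reads (RPKM) were 18.7 for Angpt1, 17.2 for Tek, 4.22 for Tie1, 0.905 for Ptprb and 0.858 for Angpt2. In null 2 the order was the same, with 17.5 for Angpt1, 10.8 for Tek, 6.69 for Tie1, 1.18 for Ptprb and 1.14 for Angpt2. In null 1 Tie1 (8.28 RPKM) stood above Tek (7.53 RPKM), between Angpt1 (11.2 RPKM) and Ptprb (1.58 RPKM), with Angpt2 at 1.43 RPKM. The neighbours Ptprb and Angpt2 were closer to each other in every library than either was between the Sox7-null libraries, so their order is not resolved. Angpt1 and Tek were likewise close in the wild type, where there is no second library to give a spread.

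**Figure D1:**
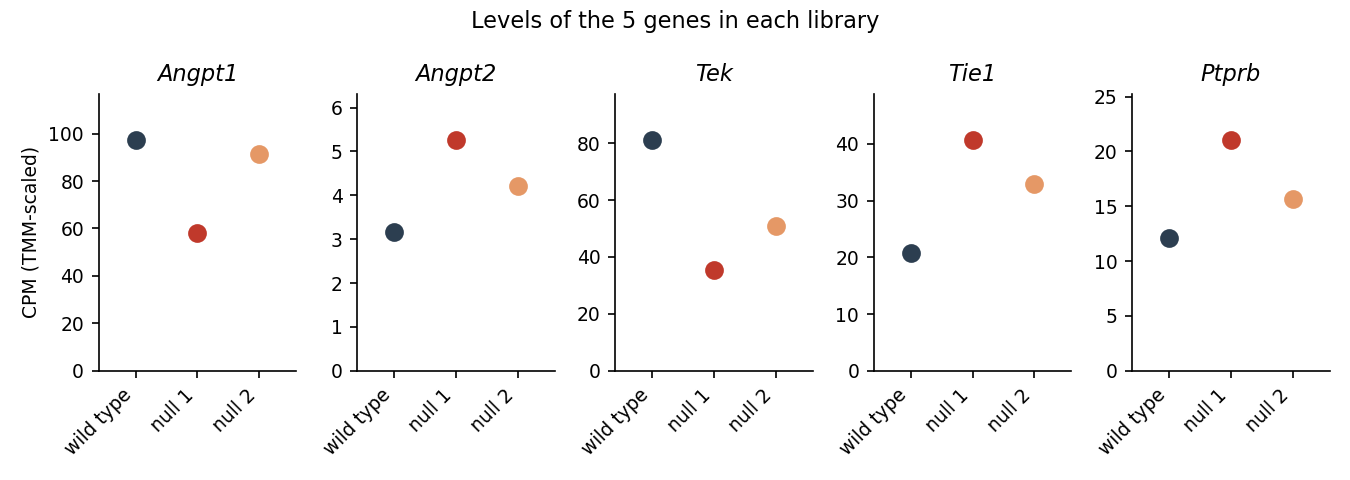
TMM-scaled CPM (vertical axis, from 0, a scale of its own for each gene) of Angpt1, Angpt2, Tek, Tie1 and Ptprb in the wild-type library and the 2 Sox7-null libraries, 1 point per library. Tek is lower and Tie1 higher in both Sox7-null libraries, and in all 5 genes null 1 lies farther from the wild type than null 2.

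The ligand Angpt1 lies on chromosome 15 (42424723 to 42676977, minus strand, GRCm38, GENCODE M21), where 10 merged exon blocks span 252.3 kb. It had 785 reads (58.2 CPM) in null 1, 1258 (91.3 CPM) in null 2 and 1292 (97.4 CPM) in the wild type. null 1 was thus low, and null 2 was nearly at the wild-type level. The log2 fold change was -0.38 ± 0.24 (SE; 95% interval -0.91 to 0.14; adjusted p = 0.286 in edgeR), and the distance between the Sox7-null libraries, 0.64 in log2(CPM + 0.5), exceeded it. An antisense RNA gene, Gm17473, shares 737 exon bases with Angpt1 and is not a row of the count files, and the strand setting used for counting is not given in the sources used here. Part of the Angpt1 count could therefore be antisense reads.

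Markers of myocardium, the main source of Angpt1 in the early heart, had a higher summed level in the Sox7-null libraries. Their sum was 35552 and 33313 CPM in null 1 and 2 and 25664 CPM in the wild type. Of the 12, 7 rose and 0 fell (1 was lower at an unadjusted p under 0.05). Over all genes tested, 11.3% were called higher and 10.2% lower. The risers included Nppa (2190, 1198 and 195 CPM in null 1, null 2 and the wild type) and Myh7 (4235, 2490 and 730 CPM). In both Sox7-null libraries 9 of the 12 were higher and 2 (Myl7 and Tnni1) were lower. Per 1000 reads of the 12 markers, Angpt1 had 1.64, 2.74 and 3.80 reads in null 1, null 2 and the wild type. As a log2 ratio this was 1.21 and 0.47 below the wild type, on a comparison added after the data had been seen. A list of mural and mesenchymal markers, for the other cells known to make Angpt1, had 3 of 12 that rose (Tagln, Cnn1 and Des) and 2 that fell (Vtn and Twist1). Its summed level was 5919 and 7451 CPM in null 1 and null 2 and 5069 CPM in the wild type. The contractile gene Acta2 was the largest part of it (3258, 4548 and 3323 CPM). Pdgfrb, Pdgfra, Cspg4 and Rgs5 did not pass. The risers are muscle genes as well, so the sum does not measure mural cells alone, and which cells gave these reads was not tested. In bulk tissue, fewer cells of a type and less RNA per cell cannot be told apart, here and for every gene below.

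Angpt2 was the gene with the fewest reads. It lies on chromosome 8 (18690263 to 18741562, minus strand), inside the span of Mcph1 on the opposite strand, with 0 exon bases shared. Its counts were 71, 58 and 42 reads in null 1, null 2 and the wild type, or 5.27, 4.21 and 3.17 CPM. Both Sox7-null libraries were higher, but the log2 fold change of 0.58 ± 0.41 (95% interval -0.32 to 1.48; adjusted p = 0.347 in edgeR) spans no change as well as a rise beyond 2-fold. Mcph1, a gene of chromosome condensation whose introns hold Angpt2, had 17.2, 21.4 and 20.8 CPM, so its level did not follow that of Angpt2.

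Neither ligand gene passed the test, and their proportion is given as a description. Angpt2 took 8.29% (95% Clopper-Pearson interval 6.53 to 10.3) of the reads of both ligand genes in null 1. The share was 4.41% (3.36 to 5.66) in null 2 and 3.15% (2.28 to 4.23) in the wild type. The interval of null 1 lay above that of the wild type, whereas those of null 2 and the wild type overlapped. The log2 ratio of Angpt2 to Angpt1 reads was 0.99 above the wild type over both Sox7-null libraries and 0.50 above it in null 2 alone. Such intervals hold for counting error alone, as PCR copies of a molecule were not marked and are counted again. Even in null 1 Angpt1 exceeded Angpt2 by 7.84-fold per length, against 15.4-fold in null 2 and 21.8-fold in the wild type. The remaining ligand gene of the family, Angpt4, had 0, 0 and 1 reads, and no fold can be given.

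Tek, the angiopoietin receptor, occupies 135.7 kb of chromosome 4 (94739289 to 94874976, plus strand) in 23 merged exon blocks. Its reads numbered 478 in null 1, 702 in null 2 and 1077 in the wild type, or 35.5, 50.9 and 81.2 CPM. Both Sox7-null libraries lay below the wild type, by 1.18 and 0.67 in log2(CPM + 0.5), and they differed from each other by 0.52. Tek fell by a log2 fold change of -0.91 ± 0.23 (95% interval -1.40 to -0.42; adjusted p = 0.0138 in edgeR), a 1.88-fold lower level. It passed with DESeq2 (adjusted p = 0.0236) and in 7 of 8 alternative fits, the exception being edgeR with no filter on low counts (adjusted p = 0.159), which called no gene at all. Among all tested genes, 7.70% had a lower log2 fold change than Tek.

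Tie1 is on the same chromosome (118471191 to 118490061, minus strand), spread over 18.9 kb in 22 merged exon blocks. It had 549, 453 and 275 reads in null 1, null 2 and the wild type, or 40.7, 32.9 and 20.7 CPM. Both Sox7-null libraries were above the wild type, and the distance between them (0.30 in log2(CPM + 0.5)) was smaller than that of either from the wild type (0.96 and 0.65). Tie1 rose by a log2 fold change of 0.83 ± 0.23 (95% interval 0.32 to 1.33; adjusted p = 0.0247 in edgeR), a 1.77-fold higher level. The call was lost with DESeq2 (adjusted p = 0.0665), with no filter (adjusted p = 0.146 in edgeR) and with a trend on transcript length and GC content removed, where the log2 fold change was 0.53 (adjusted p = 0.0979 in edgeR). The longest transcript of Tie1 has 57.6% GC, against 39.3% to 47.6% for the other genes.

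Ptprb, the longest of the 5 genes with 13333 exon bases, lies on chromosome 10 (116275523 to 116389535, plus strand). It had 284, 216 and 160 reads in null 1, null 2 and the wild type, or 21.1, 15.7 and 12.1 CPM. Values were higher in both Sox7-null libraries, with a log2 fold change of 0.61 ± 0.27 (95% interval 0.02 to 1.19), but the gene did not pass the test (adjusted p = 0.129 in edgeR). With the length and GC trend removed its log2 fold change was 0.38.

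**Figure D2:**
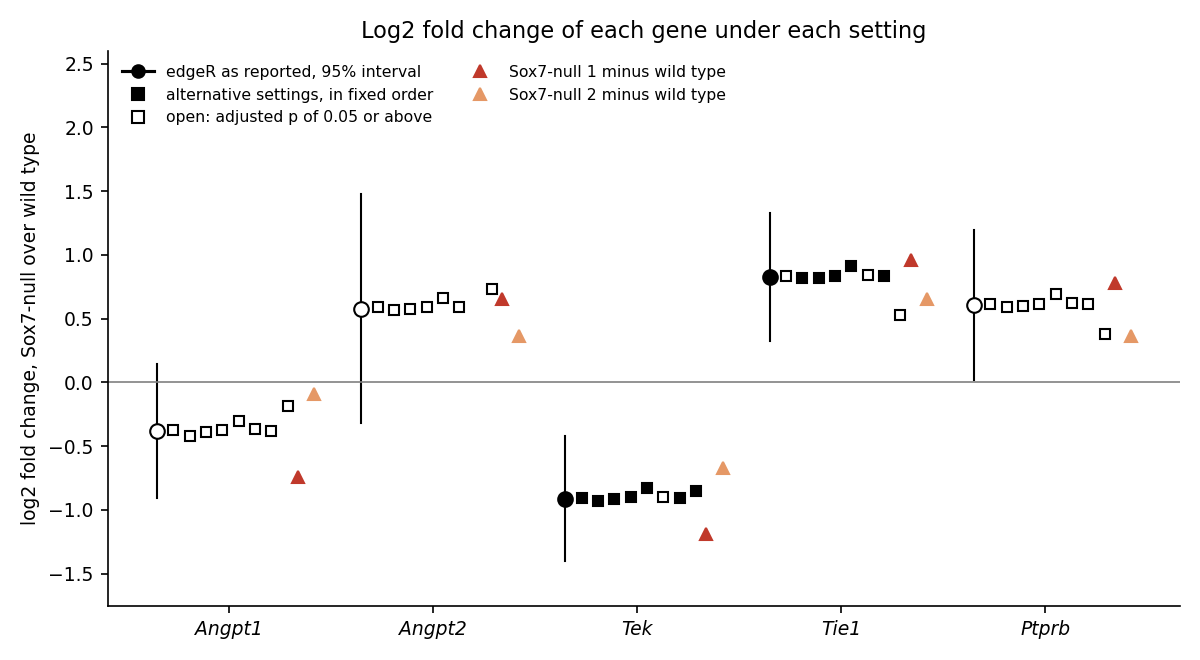
Log2 fold change of Sox7-null over wild type (vertical axis) for each gene: the edgeR value with its 95% interval (circle and line), the alternatives DESeq2, limma-voom, 3 other scalings, no filter, a minimum of 5 CPM and the length and GC trend removed (squares, left to right), and the difference of each Sox7-null library from the wild type (triangles). Filled symbols have an adjusted p under 0.05: Tek is filled in 7 of 8 alternatives and Tie1 in 5 of 8, and the minimum of 5 CPM gives no value for Angpt2.

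The proportion of Tek to Tie1 shifted the most of 4 gene pairs compared. Tek held 79.7% (95% Clopper-Pearson interval 77.4 to 81.8) of the reads of both receptor genes in the wild type. It held 60.8% (57.9 to 63.6) in null 2 and 46.5% (43.5 to 49.6) in null 1. No pair of these intervals overlapped, which covers counting error alone and was not a test between genotypes. Per length, Tek exceeded Tie1 by 4.09-fold in the wild type and by 1.62-fold in null 2, and in null 1 the ratio was 0.909. The shares and ratios were not corrected for the trend on length and GC content. On the log2 scale that trend was 0.32 and 0.27 for Tie1 in null 1 and null 2, and -0.07 and -0.05 for Tek, so part of the shift goes with it.

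The proportion of Ptprb to Tie1 differed less between libraries than that of Ptprb to Tek. Of the reads of Ptprb and Tie1, Ptprb held 34.1% (30.9 to 37.4), 32.3% (28.8 to 36.0) and 36.8% (32.2 to 41.5) in null 1, null 2 and the wild type, with overlapping intervals. This pair was added after the data had been seen. Of the reads of Ptprb and its substrate gene Tek, Ptprb held 37.3% (33.8 to 40.8) and 23.5% (20.8 to 26.4) in the Sox7-null libraries and 12.9% (11.1 to 14.9) in the wild type, and no pair of intervals overlapped.

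**Figure D3:**
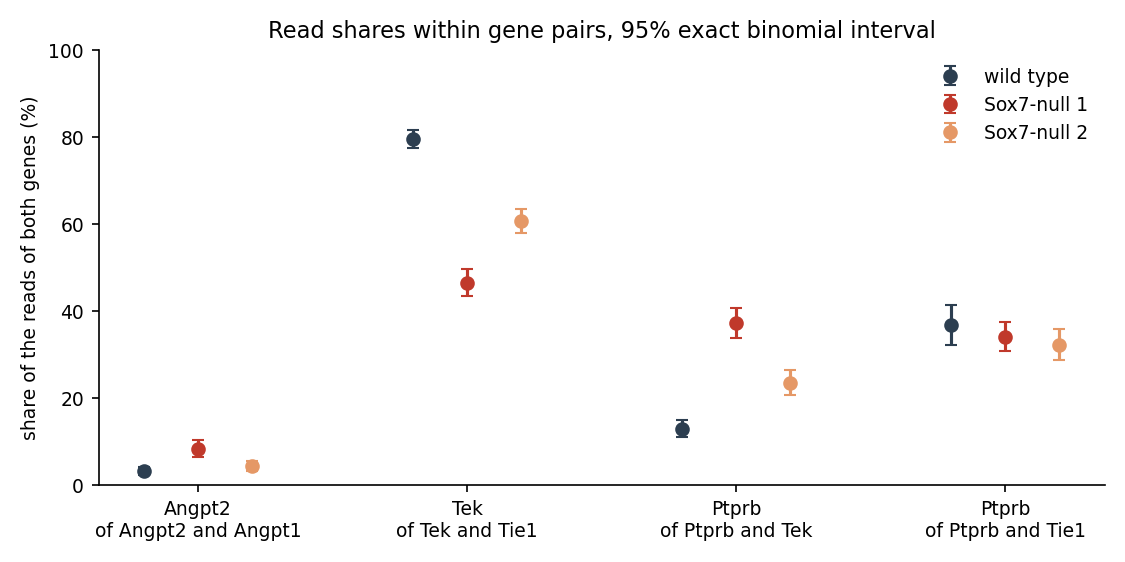
Share of the reads of a gene pair held by the first gene (vertical axis, percent) in each library, with 95% exact binomial intervals for counting error. The shares are not corrected for the trend on length and GC content. The share of Tek against Tie1 descends from 79.7% in the wild type to 60.8% and 46.5% in null 2 and 1, and that of Ptprb against Tie1 stays between 32.3% and 36.8%.

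Tek and Tie1 were then set against 20 pan-endothelial and endocardial markers, as both receptors are made by endothelium. The summed level of these markers was 902 and 904 CPM in null 1 and 2 and 884 CPM in the wild type. Of the 20, 2 rose (Pecam1 and Flt1), 2 fell (Npr3 and Cd34) and 16 did not pass. Thus 20% were called, against 21.6% of all genes tested, and the median log2 fold change was -0.16 against 0.01. Per 1000 reads of these markers, Tek had 39.3, 56.3 and 91.9 reads in null 1, null 2 and the wild type. For Tie1 the same measure was 45.2, 36.4 and 23.5 reads, for Ptprb 23.4, 17.3 and 13.7, and for Angpt2 5.84, 4.65 and 3.58. Relative to the endothelial markers, then, the mean log2 difference from the wild type was -0.97 for Tek and 0.79 for Tie1, close to the fold changes on library size.

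Within that set, Tek stood near the bottom and Tie1 near the top. Only the tight junction gene Cldn5 (17, 23 and 53 reads; log2 fold change -1.44 ± 0.49, adjusted p = 0.0531 in edgeR) had a lower value than Tek. The adhesion molecule Pecam1 (1.07 ± 0.24) and the VEGF receptor gene Flt1 (0.88 ± 0.25) had higher values than Tie1, and the same 2 markers were the ones above Ptprb and Angpt2. Cd34, a surface sialomucin, stood at -0.69 ± 0.20, and the endocardial natriuretic peptide receptor gene Npr3 at -0.62 ± 0.19. These markers were named after their values had been seen.

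**Figure D4:**
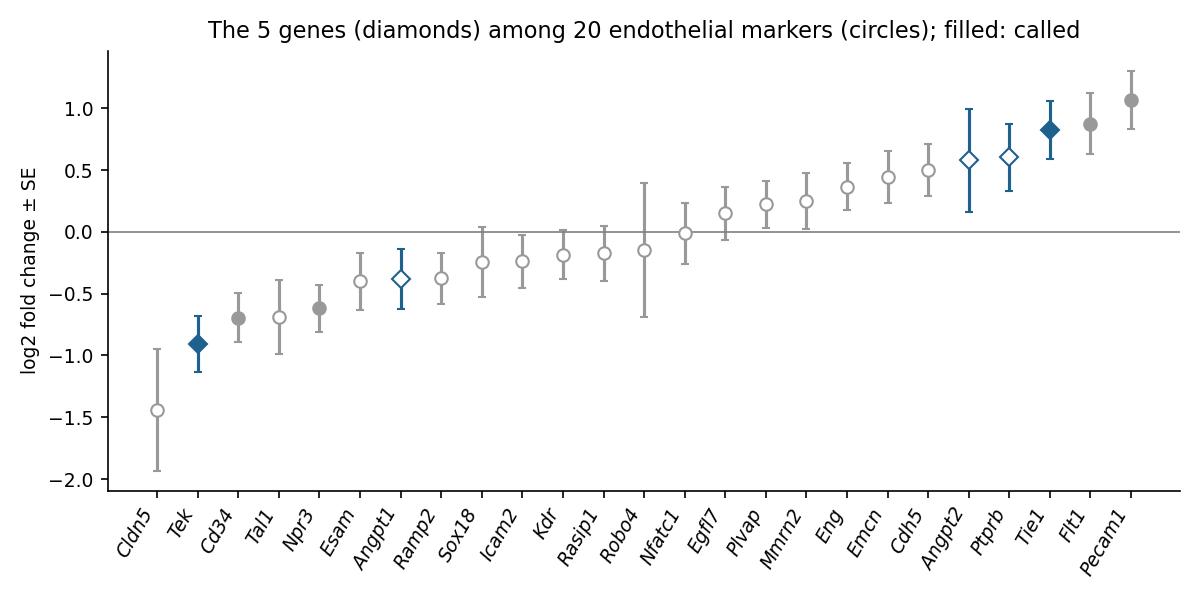
Log2 fold change with its SE (vertical axis) of the 5 angiopoietin and Tie genes (diamonds) and of 20 endothelial markers (circles), in order of size, with filled symbols for genes called by edgeR. Tek is second from the bottom, after Cldn5, and Tie1, Ptprb and Angpt2 stand just below Flt1 and Pecam1.

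Tek and Tie1 are also known from blood-forming cells, Tie1 among them in the megakaryocyte lineage. Of 10 haematopoietic markers tested 4 rose and 0 fell (1 was lower at an unadjusted p under 0.05). Over all genes tested, 11.3% were called higher and 10.2% lower. The risers were the platelet genes Pf4, Gp9 and Itga2b and the transcription factor gene Runx1. Pf4 had 108 and 64.7 CPM in the Sox7-null libraries and 16.4 CPM in the wild type. The erythroid genes Klf1, Hba-x and Hbb-y did not pass. Klf1 had 26, 133 and 181 reads in null 1, null 2 and the wild type. Hba-x and Hbb-y were below the wild type in null 1 (966 against 3167 CPM, and 1973 against 5331 CPM) but not in null 2. The summed level of the list, which the globin genes dominate, was 3131 and 9233 CPM in null 1 and 2 and 8549 CPM in the wild type. In a hypoxia list, 12 of 12 genes rose, with a median log2 fold change of 2.64. Its genes were Vegfa, Slc2a1, Slc2a3, Ddit4, P4ha1, P4ha2, Bhlhe40, Car9, Egln3, Pdk1, Bnip3 and Ldha. The list was not planned and was chosen with earlier results of these data known, so its count is a description and no test. Of 5 epicardial markers tested 1 rose (Wt1) and 0 fell (2 were higher and 0 lower at an unadjusted p under 0.05). The part of these shifts in the values of Tek, Tie1, Angpt2 and Ptprb was not tested.

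Other components of Tie signalling were called about as often as genes at large. Of 29 further ligands, co-receptors, sheddases and cytoplasmic partners, 27 were tested. Of these 6 rose and 0 fell, so that 22.2% were called against 21.6% of all genes tested. By direction, 11.3% of all genes tested were called higher and 10.2% lower. Among the 27, 7 were higher and 1 lower at an unadjusted p under 0.05 in edgeR, against 2440 and 2272 of all 13334 genes tested. DESeq2 called 5 of the 27 higher and 0 lower. The median log2 fold change was 0.04, and 13 of the 27 were higher and 12 lower in both Sox7-null libraries. With the trend on length and GC removed, 6 were called higher and 3 lower (Akt1, Mmp14 and Nos3). The fibronectin receptor genes Itga5 and Itgb1, whose product associates with Tek and binds angiopoietins, rose by 1.57 ± 0.23 and 0.75 ± 0.17 on the log2 scale (adjusted p = 0.00110 and 0.00797 in edgeR). Itga5 had 2510 and 1837 reads in the Sox7-null libraries and 713 in the wild type. Both genes are expressed far beyond endothelium.

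Among the cytoplasmic partners, Dok2, an adaptor that binds phosphorylated Tek, had 57 and 65 reads in the Sox7-null libraries against 15 in the wild type. It rose by a log2 fold change of 1.97 ± 0.50 (adjusted p = 0.0155 in edgeR), a call that DESeq2 did not make (adjusted p = 0.0907). Dok2 is also a gene of blood cells. Pik3cb, a catalytic subunit of phosphoinositide 3-kinase, rose by a log2 value of 0.93 ± 0.23. The forkhead factor gene Foxo3, whose product Akt keeps out of the nucleus, rose by 2.04 ± 0.37, with 221 and 151 reads against 44. Akt1 (log2 fold change -0.25, adjusted p = 0.321 in edgeR) and the phosphatase gene Ptpn11 (0.15, adjusted p = 0.617 in edgeR) were the most abundant genes of this list that did not pass.

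Among transcription factors known to act on Tie or angiopoietin genes, the share called was near that of all genes. Of the 16, all of them tested, 2 rose and 1 fell, so that 18.8% were called against 21.6% of all genes tested. At an unadjusted p under 0.05 in edgeR, 3 were higher and 7 lower, against 2440 and 2272 of all 13334 genes tested. Those that did not pass after adjustment were Foxc2 (higher) and Gata2, Gata3, Etv2, Tal1, Lmo2 and Klf2 (lower). They are named after their values had been seen. The ETS factor genes Ets1 and Erg rose by 0.66 ± 0.20 and 1.11 ± 0.34 (adjusted p = 0.0374 and 0.0352 in edgeR), and the forkhead gene Foxc1 fell, at -1.19 ± 0.32 (adjusted p = 0.0185 in edgeR). DESeq2 called 0 of the 16. Hif1a (302 to 323 CPM in the Sox7-null libraries, 283 in the wild type) and Elk3 (43.3 to 44.6 CPM, 46.8 in the wild type) did not pass.

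The list of 9 genes linked to FOXO1 had 6 that rose and 0 that fell, with a median log2 fold change of 1.83. At an unadjusted p under 0.05 in edgeR the counts were 7 and 0 (2440 and 2272 of all 13334 genes tested), and DESeq2 called 6 and 0. Over all genes tested, edgeR called 11.3% higher and 10.2% lower. The list was chosen with earlier results of these data known, and no test of the list was made. As background, FOXO1 is a forkhead factor that Akt keeps inactive downstream of Tek and of other receptors. Apln and Esm1 are genes of sprouting endothelium that low oxygen induces, and Ctgf and Cyr61 are well-known targets of YAP made by many cell types. Apln had 322 and 239 reads in the Sox7-null libraries against 17 in the wild type (16.1-fold higher, with a 95% exact interval of 9.94 to 27.8 for counting error; adjusted p = 8.22e-05 in edgeR). The growth factor gene Pdgfb had 169 and 115 reads against 18 (2.93 ± 0.44). Esm1 had 136, 20 and 1 reads in null 1, null 2 and the wild type, a 75.9-fold higher level with a 95% exact interval of 13.4 to 3016 for counting error, and most of its reads came from null 1. Esm1 was not called by limma-voom (adjusted p = 0.160), which called 5 genes of the list higher, nor by edgeR with no filter on low counts (adjusted p = 0.197), a fit that called 0 genes in all, and it had too few reads for the filter at a mean of 5 CPM. Ctgf, Cyr61 and Igfbp3 rose by 2.53, 1.79 and 1.83, while Cited2 (0.50) and Bmper (-0.17) did not pass. Foxo1 itself had 655 and 630 reads against 709 (log2 fold change -0.18 ± 0.20, adjusted p = 0.553 in edgeR).

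Of 6 angiopoietin-like genes, which resemble angiopoietins in sequence but whose products do not signal through Tek in the usual way, 3 had enough reads to test. Angptl2 rose by 0.92 ± 0.23 (adjusted p = 0.0139 in edgeR), with 1031, 796 and 469 reads in null 1, null 2 and the wild type. Angptl4, with 52, 77 and 63 reads, had a log2 fold change of -0.01, and Angptl6 had one of 1.06 ± 0.48 (adjusted p = 0.133 in edgeR). None of the 3 was called lower, and at an unadjusted p under 0.05 in edgeR the count was 2 higher and 0 lower. Of all 13334 genes tested, 11.3% were called higher and 10.2% lower, and 2440 and 2272 were so at an unadjusted p. With 3 genes, these counts say little about the family.

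**Figure D5:**
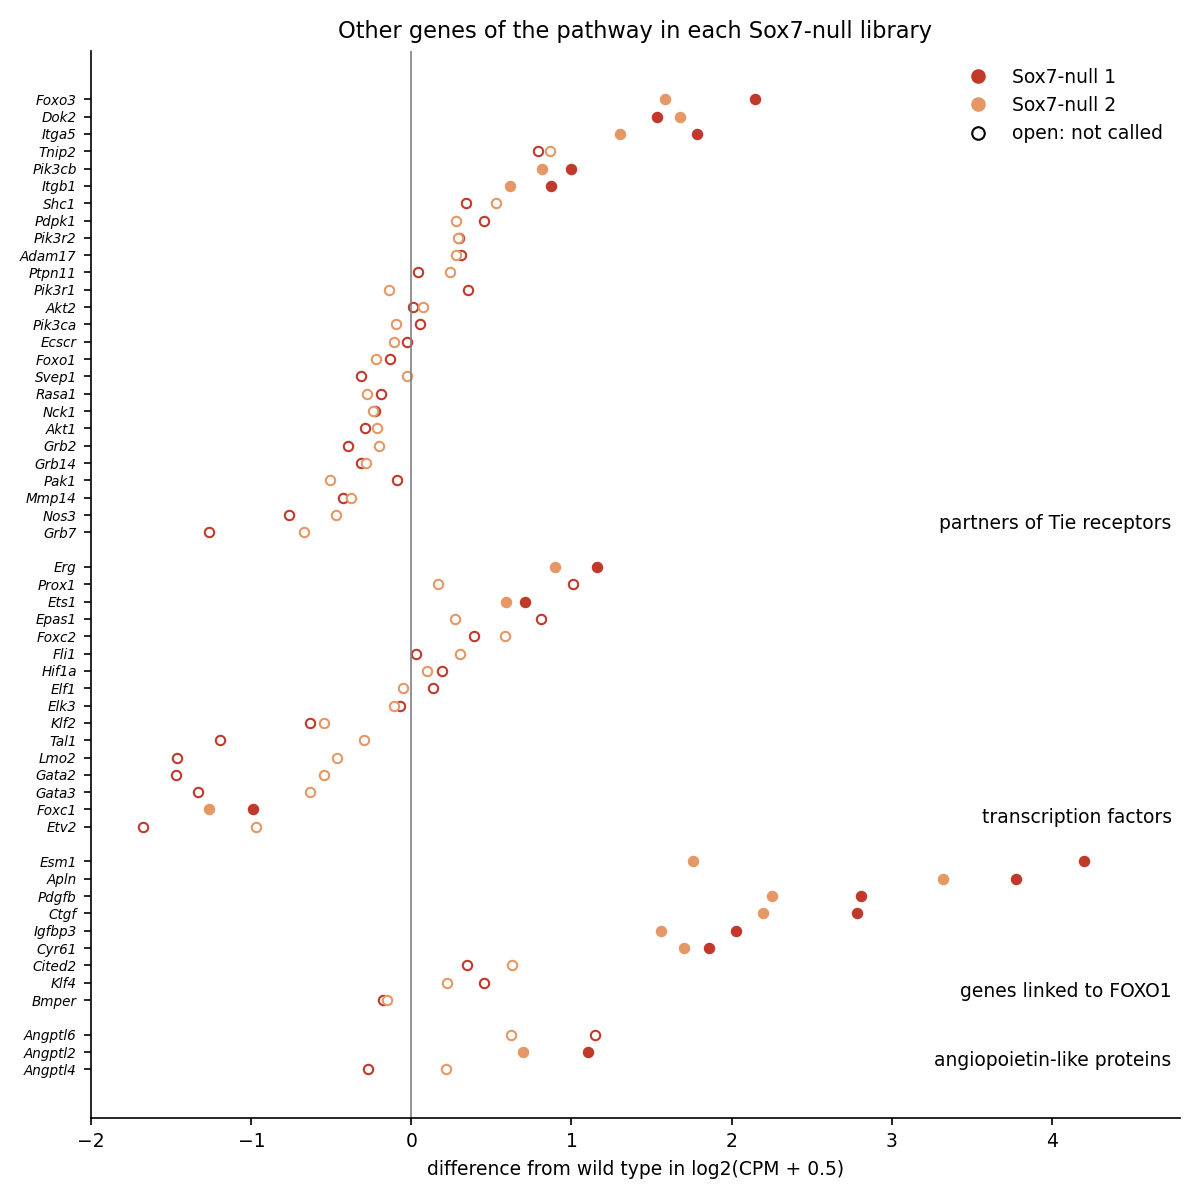
Difference of each Sox7-null library from the wild type in log2(CPM + 0.5) (horizontal axis) for the tested partners of Tie receptors (1 of them not drawn), transcription factors, genes linked to FOXO1 and angiopoietin-like genes, with filled points where edgeR called the gene. The filled points lie to the right of 0 with the exception of Foxc1.

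With 3 libraries, many genes share the pattern of any one of them. Likeness was measured as the Euclidean distance between the pairs of differences from the wild type, over 2 Sox7-null libraries. For Tek the nearest of 9565 genes were Exosc3, Taf12 and Bccip, at distances of 0.019 to 0.024, and 216 genes lay within 0.2. The nearest to Tie1 were Exoc6b, Cntfr and Magee1, with 435 genes within 0.2. Cdk19, Rbpj and Ctif were nearest to Ptprb, Sepn1, Esrrg and Tm9sf4 to Angpt2, and Wdyhv1, Chmp6 and Tpm3 to Angpt1. The pattern of Angpt1 was the least common, with 91 genes within 0.2 against 648 for Angpt2.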

How the data were processed

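The authors deposited 1 file per library with counts of whole reads for each gene symbol, as the values show. The submitters' processing notes name CASAVA, TopHat2, HTSeq and DESeq2 1.10.1, and the human builds hg19 and GRCh37, although the symbols are those of mouse. Coordinates, lengths and overlaps were therefore taken from GENCODE M21 (GRCm38) and RefSeq by symbol, with 20953 symbols current, 1920 older and 464 unmatched. Per the labels' protocols, the kit was a stranded total RNA kit. Which annotation and strand option HTSeq used is not given in the sources used here.

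The 5 summary lines (reads with no feature, ambiguous reads at 1.97% to 2.29% of the file, reads aligned more than once and others) were left out. Reads aligned more than once made up 10.4% and 11.6% of the null 1 and null 2 files and 22.3% of the wild-type file, and reads with no feature 8.10%, 8.52% and 11.7%. Over genes, the Sox7-null libraries differed by a chi-square of 19.6 per degree of freedom, so they were counted as 2 samples. The test was edgeR 4.0.16 (glmQLFit and glmQLFTest, TMM, filterByExpr with a minimum count of 10) in R 4.3.3, with genotype as the term and Benjamini-Hochberg adjustment over all 13334 genes tested. It was also run on simulated data, which cannot show how much wild-type libraries vary. With 1 residual and 11.8 prior degrees of freedom, the single wild-type library was taken to be as variable as the Sox7-null ones. SE is the log2 fold change divided by the square root of F. DESeq2 1.42.0, limma-voom (limma 3.58.1), 3 other scalings, 2 other filters and removal of a spline trend on transcript length and GC were the alternatives.

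The genes and lists were chosen with earlier results of these data known. Named were the 5 genes, up to 6 genes of each pathway list past the threshold and up to 2 abundant ones that did not pass, genes overlapping a member, and the 3 genes of at least 5 CPM nearest in pattern (predicted and ribosomal genes passed over). Of these, 1 gene of the partner list is not reported here. Others are said to be named after their values were seen, as were Foxo1, Angpt4 and Angptl6.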

Additional observations from a re-analysis of the deposited data

How the results depend on the processing

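Every direction of the 5 genes held under all alternatives run. With no filter on low counts, edgeR called 0 of 17242 genes (4113 had an unadjusted p under 0.05, and the prior degrees of freedom were 3.23 against 11.8), so Tek (-0.90, adjusted p = 0.159) and Tie1 (0.84, adjusted p = 0.146) lost their calls, and each pathway list had 0 higher and 0 lower. DESeq2 called 969 genes higher and 687 lower, and Tie1 (0.83) was lost there and once the trend on length and GC was taken out (0.53), so that 0 of the 5 genes was called higher in these fits and 1 was called lower. The cause was not tested. With that trend removed, 3 partners of Tie receptors fell (Akt1, Mmp14 and Nos3). The transcription factors called higher and lower numbered 0 and 0 with DESeq2, 1 and 2 with limma-voom, 2 and 3 with median-of-ratios or upper-quartile factors, 2 and 2 with library size only and 1 and 2 with the trend removed.

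Leaving out either Sox7-null library leaves 1 against 1 and no test. The difference from the wild type then ranged from -0.74 to -0.09 for Angpt1, 0.36 to 0.65 for Angpt2, -1.18 to -0.67 for Tek, 0.65 to 0.96 for Tie1 and 0.36 to 0.78 for Ptprb, and counts of calls have no value. No paired analysis was possible, as there is 1 wild-type library and the labels give no pairing. Depth limited Angpt2, Angpt4 and Esm1 most.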

Other observations

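In all 5 genes null 1 lay farther from the wild type than null 2. The same held for 71.2% of all genes tested, for 88.8% of all genes called and for 14 of 20 endothelial markers.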
